A study of Rattus norvegicus with 4 samples.

Results

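The comparison described here sets 2 digested rat samples against 2 undigested ones, 1 of each at day 1 and 1 of each at day 7 of a time course. Its members are all probe sets of the array other than the manufacturer's control probe sets, which makes 1263 of 1322. Total RNA of tissue labelled brain, adrenal medulla was hybridised to 4 single-channel oligonucleotide arrays, so that each combination of digestion and day is read by 1 array. The labels do not say what was digested or how, and they give no strain, age or sex, no number of animals, no purpose, and nothing that separates one animal's tissue from another's. All that the 4 groups are known to share is the species, the tissue label and the RNA type.

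The adrenal medulla is the inner part of the adrenal gland. Its chromaffin cells derive from the neural crest, make adrenaline and noradrenaline from tyrosine, store them with peptides in secretory granules and release them by calcium-triggered exocytosis when acetylcholine opens their nicotinic receptors. They share much of this machinery with neurons, and many of the probe sets on this array read ion channels, transmitter receptors and the proteins that act downstream of them.

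The unit throughout is the signal, the brightness of a probe set once the medians of the arrays had been made equal. Within each day the log2 signal of the undigested sample was subtracted from that of the digested sample, and the mean of the 2 differences is given with its standard error (SE) over the days. With 2 days the SE is the gap between them divided by 2, so a mean is larger than its SE exactly when both days point the same way. No group has a replicate, an exact sign permutation test over 2 pairs cannot go below p = 0.5, and the differences are therefore sizes, with 1 fit across all probe sets as the only test, whose p-values measure the spread between these arrays alone.

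The tissue label was checked on marker genes. Of 9 chromaffin cell markers, 5 are on the array (Th, Dbh, Ddc, Npy and Penk) and all 5 were readable, with a summed signal of 270966 undigested and 288701 digested at day 1, and 352211 and 237229 at day 7. Most of this sum is Th, at 221633 and 233350 at day 1 and 256725 and 163625 at day 7, and most of the rest is Ddc. The neuron markers, 6 of 8 on the array and all 6 readable, summed to 168373, 180176, 128633 and 106213 in the same order. The largest part of each neuron sum is Snap25, at 96677, 102213, 56595 and 61000. None of the 7 markers of the adrenal cortex is on the array, so cortex could not be checked. Schwann cell and oligodendrocyte markers (5 of 8 on the array) summed to between 2456 and 3562, astrocyte markers (3 of 6) to between 3008 and 7250, and of the 3 fibroblast and mesenchyme markers on the array Vim was below the floor throughout, Pdgfra read between 126 and 181, and Pdgfrb read 299 and 349 at day 1 and 258 and 167 at day 7. Most of the astrocyte sum is Glul, the glutamine synthetase gene, at 6550 and 6904 at day 1 and 2499 and 3356 at day 7, while Slc1a3 read 352, 229, 326 and 267 and Slc1a2 read 124, 118, 182 and 126 in the same order. In bulk tissue, fewer cells of a type and less RNA per cell cannot be told apart. The day 7 arrays also stood apart in their controls. The added hybridisation controls were low on the digested day 7 array (a median log2 of -1.35 against the other 3 arrays), and the beta-actin 3′ to 5′ signal ratio was 2.66 on the undigested day 7 array and between 1.35 and 1.48 on the others. Their part in the day 7 differences was not tested, and the day 1 signals or day 1 difference printed with a gene give its value without these arrays.

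Over all 1263 probe sets, 55 (4.35%) were at least 2-fold higher in the digested samples by the mean of the days and 62 (4.91%) at least 2-fold lower. At least 1.5-fold at each day separately, 43 (3.4%) were higher and 46 (3.64%) lower. Most of these probe sets are dim. In 4 equal classes of increasing brightness, the mean difference passed 2-fold in 17, 80, 20 and 0 probe sets, and its SD over probe sets was 0.46, 0.86, 0.52 and 0.26. The dimmest class is held together by the floor, a signal of 51.8 to which lower values were raised, and the class above it spreads the most. A probe set was therefore called readable when its mean log2 signal reached the median of all, a signal of 229, and the genes below are readable unless stated otherwise. That mean takes in both digestion states, so a gene can count as readable partly or only through the state in which it is higher. The undigested readings alone would not reach the limit for Cspg5, Pde4c, Slc6a4, Jund, Htr2a, Scnn1a, Gria4 and Nf1, which were higher. The digested readings alone would not reach it for Clcn4, Ntf3, Bdkrb1, Htr1d, Cx3cl1, Kcnh7 and Gsta1, which were lower. The plot of difference against signal level shows how the spread narrows with brightness.

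**Figure D1:**
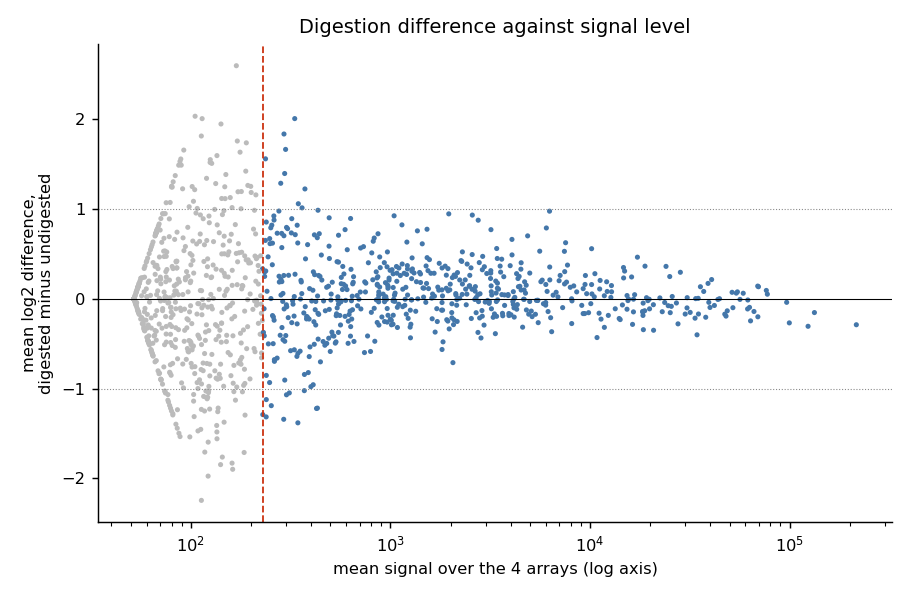
Mean log2 difference, digested minus undigested, of each of the 1263 probe sets (vertical axis) against its mean signal over the 4 arrays (horizontal log axis), with readable probe sets in blue, dim ones in grey, the readable limit of 229 as a dashed line and 2-fold as dotted lines. The cloud narrows from left to right, and 0 of the 316 brightest probe sets pass 2-fold.

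The 632 readable probe sets hold 9 (1.42%) at least 2-fold higher and 11 (1.74%) at least 2-fold lower by the mean, with 10 (1.58%) higher and 6 (0.949%) lower by 1.5-fold at both days. Of the 20 past 2-fold by the mean, only 6 passed 1.5-fold at each day, namely Cspg5, Pde4c, Arrb1 and Kcnh4 on the higher side and Cntn2 and 1 of the probe sets of Camk2d on the lower side. The other 14 owe their mean mainly to 1 day, and 14 of the 20 include at least 1 reading below 104, a limit of 2 times the floor chosen with the values known. Nf1, the gene of the Ras regulator neurofibromin, shows how this happens, and it was singled out after its values were seen. Its signals were 526 undigested and 659 digested at day 1, and 38.4 and 670 at day 7, so that 1 low undigested reading makes nearly all of its mean difference of 2.01 ± 1.68.

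Most genes did not keep their direction between the days. Read by its brightest probe set, each of 386 readable genes gave 1 value per day, and 101 (26.2%) were higher with digestion at both days, 60 (15.5%) were lower at both and 225 (58.3%) pointed in opposite directions. The counts given for families below stand beside these shares. Of those 225, 167 were higher at day 1 and lower at day 7, while 58 were the other way round. The median gene lay at 0.10 at day 1, -0.11 at day 7 and -0.01 for the mean. The split of 101 higher and 60 lower depends on the scaling of the arrays, since it was 81 and 90 without the median scaling, 65 and 100 under quantile normalisation and 62 and 111 under cyclic loess. Those scalings moved the day 1 median to -0.03, -0.02 and -0.02 and the day 7 median to 0.04, -0.07 and -0.09. A difference of about 0.1 at a single day therefore has no settled sign. That limit applies to the family counts of 1 direction as well. Among the genes named below for 1 direction, Mapk9, Grm4, Bok, Ppp3ca, Vgf, Hspb1, Tgfb1 and Chrnb4 have such a difference at day 1. Gria4, Chrna1, Avp, Hrk, Gsta1, Asic1, Tubb5, Hspb1, Tgfb1 and Chrnb4 have one at day 7. The gap between the days of a gene, and so its SE, depends on the scaling in the same way. A small SE, or a difference called even or alike at the days, is therefore given for the median scaling only. The scatter of day 1 against day 7 differences shows how few genes stand out in 1 direction.

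**Figure D2:**
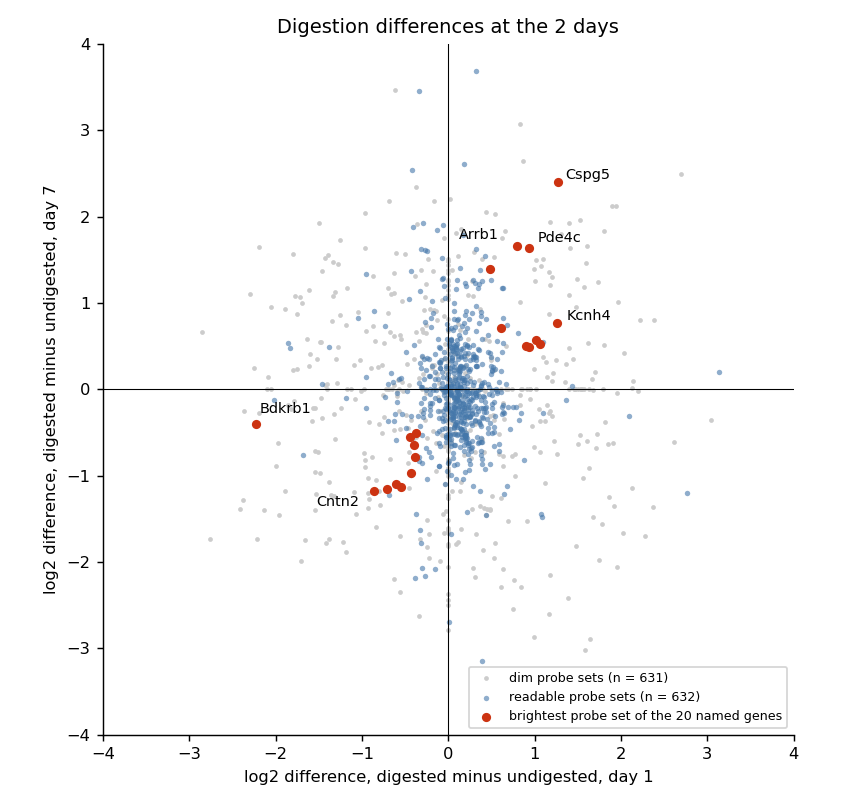
Log2 difference, digested minus undigested, at day 1 (horizontal axis) and day 7 (vertical axis) for the dim (grey, 631) and readable (blue, 632) probe sets, with the 20 genes ranked highest by their smaller difference in red. The readable cloud is centred near 0 on both axes and is wider at day 7, and the named genes lie in its upper right and lower left corners.

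Of the readable genes with no value at the floor, the one that differed most in 1 direction was Cspg5. It codes for neuroglycan C, a chondroitin sulphate proteoglycan of nerve cells. Its signals were 248 undigested and 599 digested at day 1, and 96.8 and 511 at day 7. Both digested readings lay above both undigested ones, and the mean difference was 1.84 ± 0.56, of which day 1, with neither reading near the floor, gave 1.27. In the same family of axon growth and neural adhesion genes, Cntn2, the gene of the axonal adhesion protein contactin-2, went the other way. It read 604 undigested and 332 digested at day 1, and 460 and 203 at day 7, a mean difference of -1.02 ± 0.16 with no overlap between the digestion states. Of the family's 22 genes on the array 8 were readable, 3 of them higher and 2 lower at both days, around a median of -0.11. Whether the digested and undigested readings overlap is stated, here and below, only to describe the readings of single genes. The share of all readable genes without overlap was not counted. The genes so described were picked for large differences in 1 direction, which favours readings that do not overlap.

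Solute carriers had the highest median of the families with 3 or more readable genes, at 0.35 (0.27 at day 1 and 0.26 at day 7), and it stayed between 0.30 and 0.36 under the 3 other scalings. It rests on the choice of readable genes, since the median was 0.00 over all 21 solute carrier genes on the array, dim ones included, and 0.03 over those among the 316 brightest probe sets. Of the 21 genes on the array 8 were readable, 3 higher at both days and 1 lower. Slc6a4, the serotonin transporter gene, read 195 undigested and 407 digested at day 1 and 187 and 269 at day 7 (0.79 ± 0.27). Slc6a11, which codes for a transporter that takes up GABA, read 252 and 471 at day 1 and 209 and 296 at day 7 (0.70 ± 0.20). In both genes the higher pair of readings is the digested pair, and the undigested readings at the days lie close together. The undigested readings of Slc6a4 are below the readable limit of 229, so it counts as readable only through its digested readings. The undigested reading of Slc6a11 at day 7 is also below that limit. Slc2a3, the gene of the neuronal glucose transporter GLUT3, read 6314 and 7900 at day 1 and 3158 and 9784 at day 7 (0.98 ± 0.65), and much of its mean comes from the low undigested day 7 reading. Lower at both days was Slc1a3, which codes for a glial glutamate transporter and is also an astrocyte marker, at -0.45 ± 0.17 (-0.62 at day 1).

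Signal transduction downstream of receptors held another pair of high genes. Pde4c, the gene of a phosphodiesterase that breaks down cyclic AMP, read 270 undigested and 516 digested at day 1, and 120 and 376 at day 7 (1.29 ± 0.35). Arrb1, which codes for beta-arrestin 1, a protein that uncouples activated receptors from their G proteins, read 381 and 659 at day 1 and 156 and 493 at day 7 (1.22 ± 0.43). For both, the digested readings are above the undigested ones at each day and across the days. Pde4c counts as readable only through its digested readings. The family of G proteins, cyclases, phosphodiesterases and arrestins had 12 readable genes of 15, with 5 higher at both days, 0 lower and 7 opposite. Its median was 0.12, from 0.33 at day 1 and -0.11 at day 7, and it fell to 0.04 under quantile normalisation, 0.03 under cyclic loess and 0.01 over the 316 brightest probe sets. Of 27 readable signalling kinases, 9 were higher and 3 lower at both days around a median of 0.01, which turned to -0.0032 and -0.02 under quantile normalisation and cyclic loess. Mapk9, a stress-activated JNK kinase gene, stood at 0.44 ± 0.37 (0.07 at day 1) and Stk10, a serine/threonine kinase gene, at -0.56 ± 0.22 (-0.34 at day 1). The 4 readable phosphatase genes had means below 0 (median -0.13), but 3 of them pointed in opposite directions at the days, and only Ppp3ca, the gene of a calcineurin catalytic subunit, was lower at both (-0.21 ± 0.15, -0.06 at day 1).

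Glutamate receptor genes split within the family. Grin1, which codes for the subunit that every NMDA receptor contains, read 2220 undigested and 3094 digested at day 1, and 1557 and 4079 at day 7 (0.93 ± 0.46). Grin2a, the gene of a partner subunit, read 490 and 378 at day 1 and 665 and 469 at day 7 (-0.44 ± 0.06). Grin1 was thus above both undigested readings on both digested arrays, and Grin2a below both. The NMDA receptor list, which also takes in the scaffold gene Dlg4 and the similarly named gene Grina, had 7 readable members, 1 higher at both days, 2 lower and 4 opposite, with a median of -0.13 that was 0.47 over its members among the 316 brightest probe sets. After the median scaling, none of the 4 readable genes in the AMPA and kainate list changed direction between the days. Its 3 lower members include Grip2, a scaffold that binds AMPA receptors, with signals of 412 and 305 at day 1 and 785 and 401 at day 7 (-0.70 ± 0.27), and its higher member is the subunit gene Gria4 (0.25 ± 0.22, 0.47 at day 1). The list's median was -0.18 and lay between -0.30 and -0.18 under the other scalings. Of the metabotropic receptors only Grm4 was readable (0.26 ± 0.25, 0.01 at day 1).

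Among ion channels, the potassium channel Kcnh4, of the ether-a-go-go family of voltage-gated channels, was the highest. It read 179 undigested and 430 digested at day 1, and 359 and 611 at day 7 (1.01 ± 0.25), with no overlap between the states. Its relative Kcnh7 stood at -0.50 ± 0.13 (-0.63 at day 1). Of 49 potassium channel genes on the array 20 were readable, 5 higher and 4 lower at both days, around a median of -0.04. Clns1a codes for a protein first described in a chloride current and active in assembling the splicing machinery. After the median scaling it had the most even difference of the 10 higher genes in the plot of signals by array. Its signals were 2773 and 4239 at day 1 and 3756 and 6160 at day 7 (0.66 ± 0.05), and its second probe set gave 0.56. Clcn4, a chloride and proton exchanger gene, read 306 and 201 at day 1 and 336 and 157 at day 7 (-0.85 ± 0.24), both digested readings below both undigested ones. Calcium channel and pump genes had 11 readable members, 2 higher and 1 lower at both days. These included Cacna1g, a T-type channel gene, at 0.55 ± 0.08 (0.46 at day 1) and Cacna1c, an L-type channel gene, at -0.28 ± 0.01 (-0.29 at day 1). Among 5 readable sodium and acid-sensing channel genes, Scnn1a, the gene of an epithelial sodium channel subunit, stood at 0.38 ± 0.11 (0.49 at day 1) and Asic1, an acid-sensing channel gene, at -0.64 ± 0.54 (-1.18 at day 1).

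Ligand-gated channels had 15 readable genes of 40, with 6 higher and 3 lower at both days and a median of 0.00 that turned to -0.01 and -0.05 under quantile normalisation and cyclic loess. The higher ones include the nicotinic receptor subunits Chrna1 (0.74 ± 0.69, 1.43 at day 1) and Chrna7 (0.64 ± 0.33, 0.31 at day 1), although another probe set of Chrna7 gave -0.09. Chrnb4, the beta subunit gene of the nicotinic receptor of autonomic ganglia and chromaffin cells, was the only gene with several readable probe sets of which each was lower at both days. It read 816 undigested and 754 digested at day 1, and 554 and 507 at day 7 (-0.12 ± 0.01). Its mean lay between -0.19 and -0.11 under the other scalings. The difference of -0.11 at day 1 and -0.13 at day 7 is near the size that has no settled sign at a single day. Its probe sets were no longer all lower at both days under quantile normalisation and without the median scaling. Of 61 G protein coupled transmitter receptor genes 20 were readable, 4 higher and 5 lower at both days. Htr2a, a serotonin receptor gene, stood at 0.62 ± 0.23 (0.38 at day 1). Htr1d, also a serotonin receptor gene, stood at -1.19 ± 0.88 (-0.30 at day 1) and rests on a signal of 85.5 on the digested day 7 array. Both bradykinin receptor genes were lower at both days. Bdkrb1, whose receptor is induced by inflammation, read 398 and 84.7 at day 1 and 355 and 270 at day 7 (-1.31 ± 0.92). Bdkrb2, the constitutive receptor, read 422 and 342 at day 1 and 855 and 594 at day 7 (-0.41 ± 0.11). The digested readings of Bdkrb1 both lie below the undigested ones, whereas those of Bdkrb2 overlap because both day 7 readings are high.

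**Figure D3:**
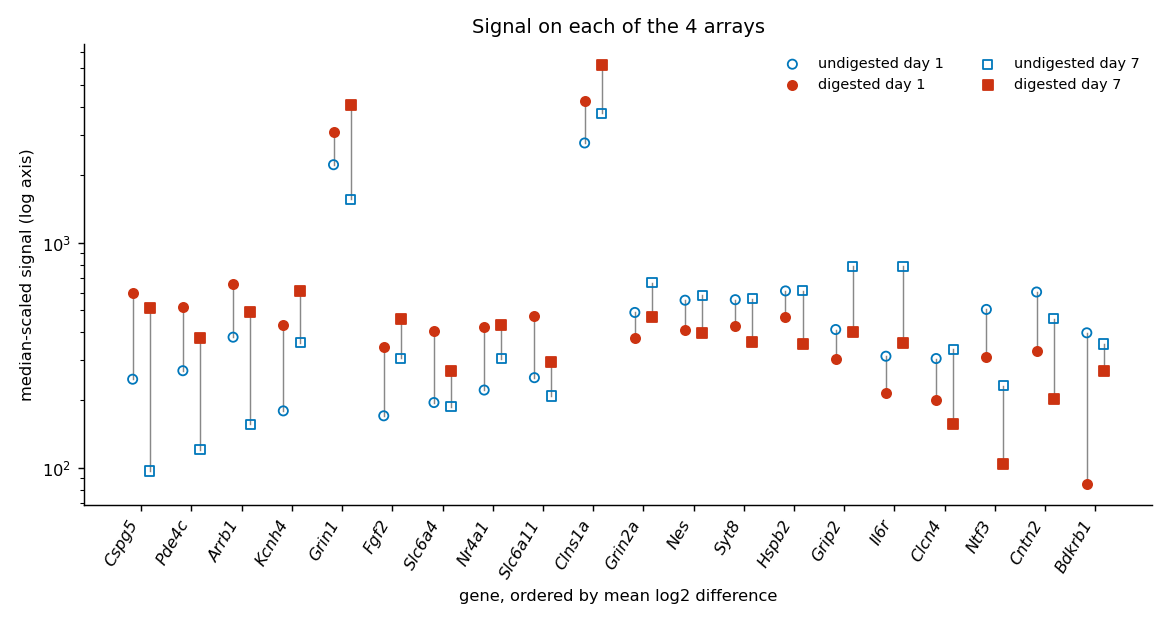
Median-scaled signal (log axis) on each of the 4 arrays for the 10 higher and 10 lower genes ranked by the smaller of their 2 within-day differences, with undigested readings open, digested readings filled, circles for day 1, squares for day 7 and a line joining the pair of a day. Every line runs upward to the digested reading in the left block (Cspg5 to Clns1a) and downward in the right block (Grin2a to Bdkrb1), which the ranking rule requires.

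After the median scaling, the genes that define chromaffin cells pointed in opposite directions at the days, as did 58.3% of all readable genes. For Th (0.07 at day 1), Npy (0.01 at day 1) and Penk (-0.03 at day 7), 1 of the 2 differences is too small for a settled sign. The day 1 difference of Ddc (0.15) is not much larger than that size. Th, which codes for the enzyme that makes L-DOPA from tyrosine and sets the pace of catecholamine synthesis, gave -0.29 ± 0.36 (0.07 at day 1) and Ddc, the next enzyme, -0.11 ± 0.26 (0.15 at day 1). Dbh, the gene of dopamine beta-hydroxylase, read 1711 undigested and 2461 digested at day 1, and 4175 and 2961 at day 7, so that the digested sample was the higher of the pair at day 1 and the lower at day 7, and the mean was 0.01 ± 0.51. All 4 readable genes of catecholamine synthesis and breakdown pointed in opposite directions at the days. Penk, the enkephalin precursor gene, read 967 and 1168 at day 1 and 2012 and 1973 at day 7 (0.12 ± 0.15). Npy, the gene of neuropeptide Y, read 574 and 577 at day 1 and 376 and 58.2 at day 7, so its mean of -1.34 ± 1.35 is a single low reading near the floor. Of the other neuropeptide and granule genes, Vgf stood at -0.28 ± 0.25 (-0.03 at day 1) and Avp, the vasopressin gene, at 0.25 ± 0.16 (0.41 at day 1). Pnmt, Chga and Chgb are named by no probe set in the annotation used.

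Structural and vesicle genes showed small differences. Nes, which codes for nestin, a filament of progenitor cells, read 555 undigested and 409 digested at day 1, and 584 and 398 at day 7 (-0.50 ± 0.06), without overlap and nearly alike at the days. Its other probe set, below the readable limit, went the other way at both days, with a mean of 2.03. That probe set read 22.7 undigested and 200 digested at day 1, and 35.3 and 226 at day 7, with its undigested readings below the floor. After the median scaling, the neurofilament genes Nefl, Nefm and Nefh were each higher at day 1 and lower at day 7, with Nefm, for example, at 40879 and 42918 at day 1 and 38105 and 20845 at day 7, and the family's median went from 0.11 to -0.58. The day 1 difference of Nefm (0.07) and the day 1 median of the family are too small for a settled sign. The day 1 difference of Nefl (0.15) is not much larger than that size. Of 9 readable microtubule genes 2 were higher at both days, among them Map1b, a microtubule-binding protein gene of growing axons, at 0.46 ± 0.10 (0.56 at day 1), and Tubb5, a tubulin gene, at 0.14 ± 0.04 (0.18 at day 1), although another bright probe set of Tubb5 gave -0.14. Synaptic vesicle and exocytosis genes, the largest readable family after the kinases and the machinery by which chromaffin granules are released, had 25 readable members with 7 higher and 3 lower at both days, 15 opposite, and a median of -0.01. Syt8, a synaptotagmin gene, read 558 and 425 at day 1 and 563 and 362 at day 7 (-0.52 ± 0.12). Its relative Syt9 stood at 0.44 ± 0.06 (0.50 at day 1). Of 7 readable heat shock genes 2 were lower and 0 higher at both days. Hspb2, a small heat shock protein gene, read 611 and 468 at day 1 and 612 and 355 at day 7 (-0.59 ± 0.20). Hspb1, the other, stood at only -0.04 ± 0.01 (-0.05 at day 1) and its further probe sets gave 0.31 and 0.26. Its difference is too small for a settled sign at either day, so its place among the lower genes is not settled.

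Trophic factors and their receptors went both ways. Fgf2, a growth factor that acts on neurons and chromaffin cells, read 170 undigested and 345 digested at day 1, and 307 and 457 at day 7 (0.80 ± 0.22). Ntf3, the neurotrophin-3 gene, read 505 and 310 at day 1 and 232 and 104 at day 7 (-0.93 ± 0.22). The digested reading of Fgf2 was the higher at each day with no overlap, while Ntf3 overlapped across the days, since its undigested day 7 reading lay below its digested day 1 reading. Neurotrophins and their receptors had 7 readable genes, 1 higher and 3 lower at both days, median -0.11. Igf1r, the insulin-like growth factor receptor gene, was higher (0.99 ± 0.56, 0.43 at day 1) and Insr, the insulin receptor gene, lower (-0.64 ± 0.39, -0.25 at day 1). Tgfb1 was almost level at -0.03 ± 0.01 (-0.03 at day 1), and of its family's 8 readable genes 7 pointed in opposite directions, beside 58.3% of all readable genes.

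Immediate early genes, which are switched on quickly by activity or stress, had 10 readable members with 4 higher and 2 lower at both days and a median of 0.18, or 0.11 under quantile normalisation and cyclic loess. Nr4a1, an orphan nuclear receptor gene, read 222 undigested and 424 digested at day 1, and 305 and 430 at day 7 (0.72 ± 0.22). Both digested readings exceeded both undigested ones, but its other probe set gave 1.07 at day 1 and -1.44 at day 7. Jund, a gene of the AP-1 transcription factor, stood at 0.98 ± 0.81 (0.17 at day 1). Of 14 readable cytokine and inflammation genes 3 were higher and 3 lower at both days. Il6r, the interleukin 6 receptor gene, read 313 and 214 at day 1 and 785 and 357 at day 7 (-0.84 ± 0.29), with overlap across the days. Il13 stood at -0.98 ± 0.65 (-0.33 at day 1) and the chemokine gene Cx3cl1 at -1.12 ± 0.96 (-0.16 at day 1), the latter on a signal of 74.6 on the digested day 7 array. Among antioxidant genes, Mt1, a metallothionein gene, was evenly higher at 0.30 ± 0.03 (0.33 at day 1) and Gsta1, a glutathione transferase gene, stood at -0.41 ± 0.32 (-0.73 at day 1) with a signal of 78.2 on the digested day 1 array. In the BCL2 family the membrane-permeabilising Bok gave 0.25 ± 0.14 (0.11 at day 1) and the death-promoting Hrk -0.32 ± 0.28 (-0.60 at day 1), with 8 of 10 readable genes opposite at the days, beside 58.3% of all readable genes.

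**Figure D4:**
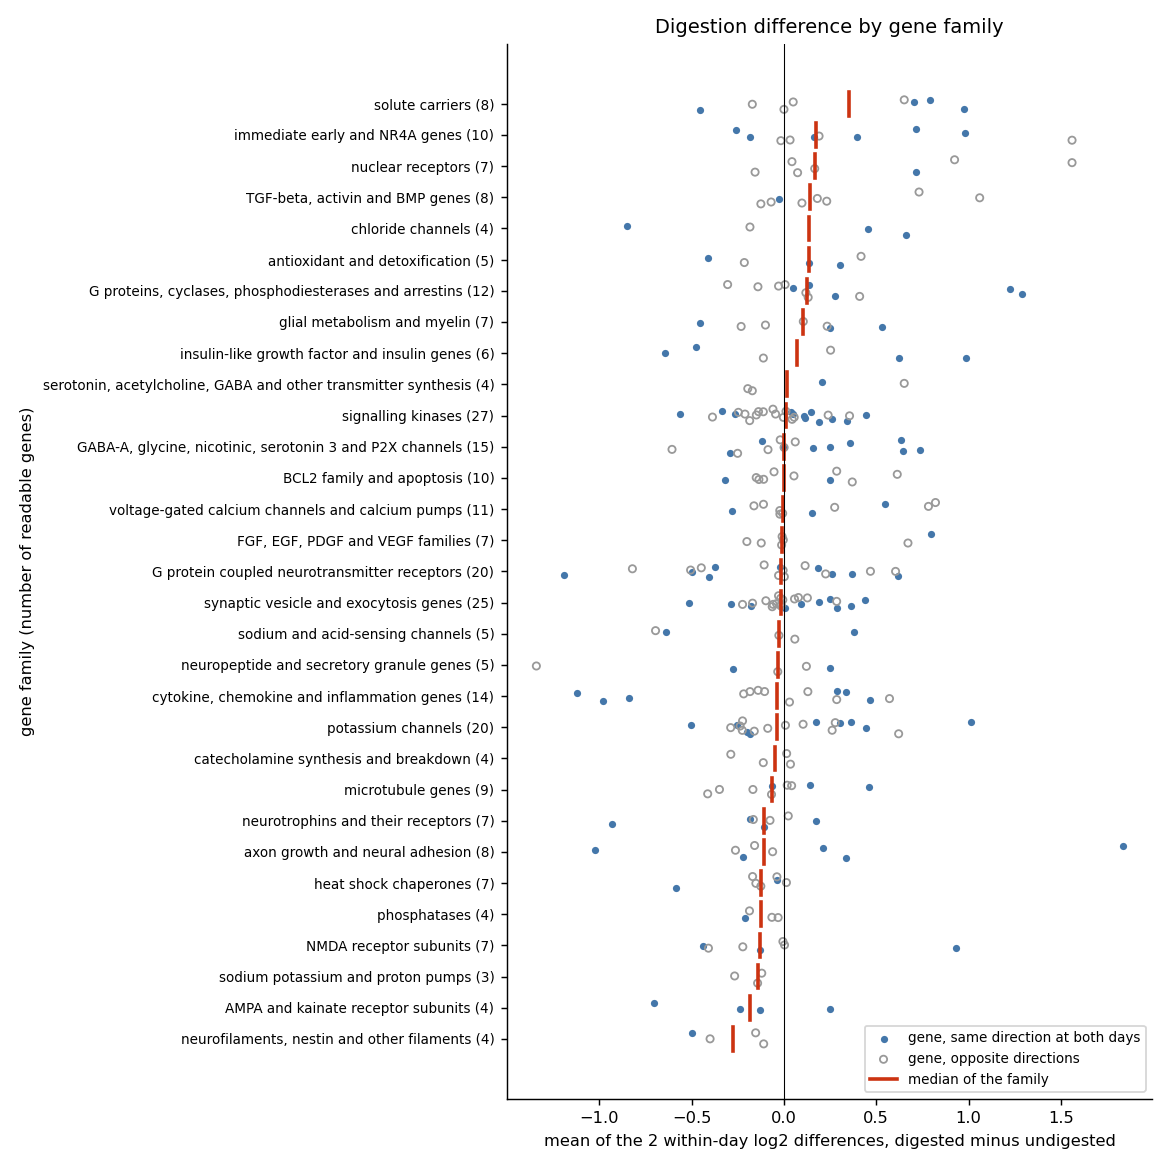
Mean log2 difference, digested minus undigested, of each readable gene (horizontal axis) in the families with 3 or more readable genes (vertical axis, ordered by the family median, a red bar), with filled points for genes of 1 direction at both days and open points for opposite directions. Most medians lie close to 0 and most families have filled points on both sides of it.

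Genes read by several probe sets allow a check within the same arrays, although probe sets of 1 transcript are not independent. Of 125 genes with at least 2 readable probe sets, 16 had every one higher at both days and 1 every one lower, and the pooled SD between probe sets of a gene was 0.31. Of all 632 readable probe sets taken singly, 195 were higher and 96 lower at both days. After the other scalings the counts were 10 and 4 (as deposited), 8 and 7 (quantile) and 8 and 10 (cyclic loess). The highest of the 16 by their weakest probe set were Grin1 (0.93 and 0.73), Slc2a3 (0.98 and 0.76), Clns1a (0.66 and 0.56), Vdac1 (0.56 and 0.79) and Ckb (0.53 and 0.52), and these 5 kept their direction under all 3 scalings. Vdac1, which codes for the main channel of the outer mitochondrial membrane, read 9971 undigested and 11535 digested at day 1, and 7054 and 13242 at day 7. Ckb, the brain-type creatine kinase gene, read 10675 and 12211 at day 1 and 3590 and 6542 at day 7. In Grin1, Slc2a3, Vdac1 and Ckb, though not in Clns1a, the undigested day 7 array, the one with the beta-actin ratio of 2.66, had the lowest reading of the 4. The same holds for Cspg5, Pde4c, Arrb1, Slc6a4 and Slc6a11, though not for Kcnh4, Fgf2 and Nr4a1. A gene picked as higher at both days must have its lowest reading on 1 of the 2 undigested arrays. The share of all readable genes that read lowest on the undigested day 7 array was not counted. The part of that array in the differences was not tested.

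**Figure D5:**
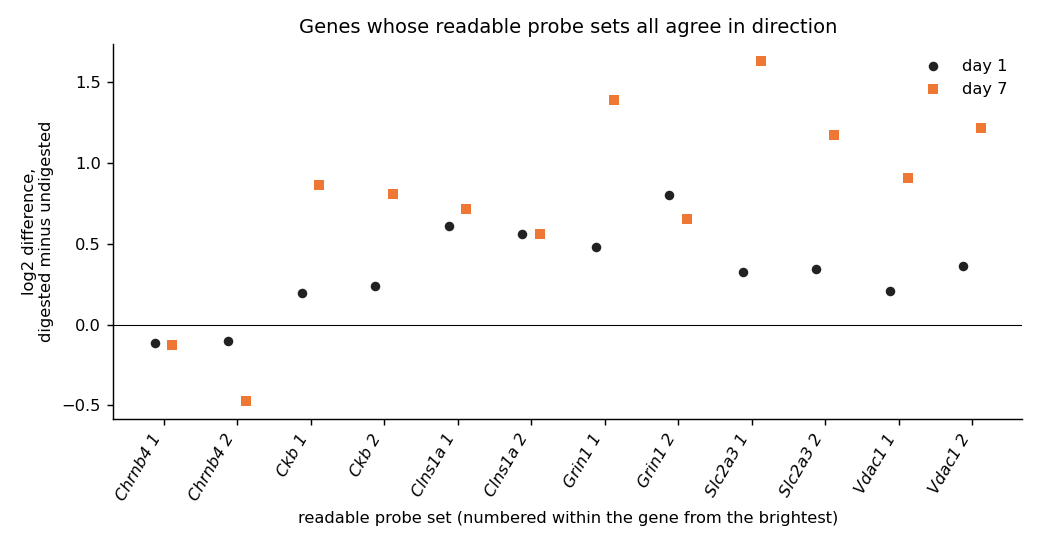
Log2 difference, digested minus undigested, at day 1 (circles) and day 7 (squares) for each readable probe set of 6 genes, the 5 named higher ones and Chrnb4, out of the 16 and 1 whose readable probe sets all point in 1 direction, numbered within the gene from the brightest. After the median scaling, Clns1a gives nearly the same value in both probe sets at both days, while Slc2a3, Vdac1 and Ckb lie higher at day 7 than at day 1.

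A size seen in one probe set was often not matched by another. Of the 16 readable probe sets at least 1.5-fold apart at both days, 15 have a gene name, and 7 of those (of Camk2d, Cacna1a, Irf1, Bdnf, Grin1, Tgfbr1 and Glul) are not their gene's brightest. For 0 of these 7 did the brightest probe set also pass 1.5-fold at both days in the same direction. That of Grin1 was higher at both days but by a log2 of only 0.48 at day 1, and for Cacna1a and Bdnf its mean had the other sign. Bdnf, the gene of brain-derived neurotrophic factor, stood at -0.18 ± 0.03 (-0.21 at day 1) by its brightest probe set and at 0.71 ± 0.03 (0.68 at day 1) by the one that passed. These genes were picked out after their values were seen.

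In limma's additive fit of digestion and day, which covered 1171 probe sets with 1 residual degree of freedom, 0 (0%) had an adjusted p under 0.05 for digestion. An unadjusted p under 0.05 was found for 69, and the lowest adjusted p was 0.641. Restricted to the 632 readable probe sets, limma again called 0, with 42 at an unadjusted p under 0.05 and a lowest adjusted p of 0.439, that of Cspg5. Cspg5 counts as readable only through its digested readings, so its place in that fit rests on a filter that used the readings compared. A floor at the 40th percentile called only Cspg5 (adjusted p = 0.0374), and a spread that depends on the signal level called only Slc2a3 (adjusted p = 0.0113), and in both the prior of the spread had infinite degrees of freedom, so that the probe set's own disagreement between the days did not count. The fit takes as its error how far the digestion difference moved from one day to the other, which cannot be told apart from the spread between samples.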

How the data were processed

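The authors deposited 1 linear signal intensity for each probe set and array. How they computed it, and a genome build, are not given in the sources used here. Probe names came from the platform annotation, with 1132 gene identifiers found in a RefSeq gene table and 0 symbols changed. Of the 1263 probe sets, 1137 named 1 gene (720 genes), 8 several and 118 none. Arrays were scaled to a common median (factors 0.925, 1.01, 1.09 and 0.984 for undigested and digested day 1, then day 7), floored at the 20th percentile (51.8) and taken to log2. The number of arrays, 1 per group, limits the precision. A gene was read by its brightest probe set, and 386 genes were readable. The 33 families, patterns of gene symbols, cover 549 genes, of which 283 are readable and 7 of those sit in several families. Genes were named by a rule. It took the 10 highest and 10 lowest by the smaller within-day difference, up to 2 per family of 1 direction and 8 chromaffin genes. It also took up to 5 each way whose readable probe sets all agree. The last set was the 5 genes of opposite directions at the days with the greatest smaller difference. The first 2 sets and the last left out values at the floor. Members, families and this rule were chosen with earlier results of these data known. Marker lists of 8 cell types were checked. Macrophage and endothelial markers had 1 gene each on the array and 0 readable, and fibroblast markers 3 with 1 readable. Fits used limma 3.58.1 in R 4.3.3, with Benjamini-Hochberg adjustment, 2-sided, without probe sets at the floor on all arrays. The remaining steps ran in Python 3.11.15 (pandas 2.3.3, numpy 2.4.6) and were tested on simulated data. Alternatives were the values as deposited, quantile normalisation, cyclic loess, another floor or an offset, other brightness limits, 1 value per gene, the mean over probe sets and each day alone. Probe sets with no value at the floor were added after seeing the data.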

Additional observations from a re-analysis of the deposited data

Results flagged for a closer look

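Each of the following named genes pointed in opposite directions at the 2 days, and with 1 array per group the difference between the days was not tested. The directions are those after the median scaling. The differences of Th and Npy at day 1 and of Penk at day 7 are too small for a settled sign. That of Ddc at day 1 (0.15) is not much larger. Values are day 7 minus day 1 of the log2 difference between digested and undigested. Cacnb1, a calcium channel subunit gene, had -3.97 (signals 64.1 undigested and 436 digested at day 1, 844 and 367 at day 7). The value was -2.70 for Npy, -2.57 for Nos2, the inducible nitric oxide synthase gene (308 and 656, then 537 and 193), and -1.80 for Kcna5, a potassium channel gene (294 and 469, then 608 and 279). Csf2rb, a cytokine receptor subunit gene, had -1.69 (567 and 1038, then 715 and 407). Igf2, a growth factor gene, was lower in the digested sample at day 1 and higher at day 7, with 1.87 (471 and 228, then 197 and 349). The chromaffin genes Dbh, Th, Ddc and Penk had -1.02, -0.72, -0.52 and -0.30. Cacnb1 and Npy rest on a signal near the floor.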

How the results depend on the processing

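The 3 other scalings left the counts over all probe sets within 1.5 times of 55 higher and 62 lower by the mean and of 43 higher and 46 lower at both days. The counts by the mean became 8 and 4 with a floor at the 40th percentile, 35 and 29 with an offset, 9 and 11 for readable probe sets, 0 and 0 for the 316 brightest, 36 and 38 with 1 value per gene and 27 and 27 without values at the floor (added after seeing the data). Each day alone gave between 111 and 139 higher and between 97 and 134 lower. At both days, the counts became 15 and 8 with the higher floor, 10 and 6 for readable probe sets, 1 and 0 for the 316 brightest, 26 and 21 without values at the floor, and 26 higher with 1 value per gene. The limma count of 0 became 1 with the higher floor and 1 with a spread trend, and stayed 0 elsewhere, with 11 to 68 probe sets at an unadjusted p under 0.05 and lowest adjusted p from 0.439 to 0.998. Family medians kept their sign in 28 of 33 families under the 3 scalings. They moved by more than the spread between the family's days in 7 families under cyclic loess, 4 under quantile normalisation and 2 in the values as deposited, and 3 families gave no value for the 316 brightest. The mean turned sign for Dbh (quantile and loess), Csf2rb (loess), and Bdnf, Hspb1 and Igf2 (mean over probe sets), and that of Th went to 0.00 after quantile normalisation. Small differences near the floor are imprecise, since the values carry no detection call.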

Other observations

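Among probe sets below the readable limit, 43 were at least 2-fold apart in 1 direction at both days, and 18 of them had no value at the floor, 11 higher and 7 lower in the digested samples. They were singled out after their values were seen, and none passed the limma fit. Aanat, the gene of the enzyme that commits serotonin to melatonin synthesis, read 72.2 undigested and 469 digested at day 1, and 65.2 and 368 at day 7 (2.60 ± 0.10), with an adjusted p of 0.641 by limma. Both undigested readings lie near the floor of 51.8. Agtr1a, the gene of an angiotensin II receptor, stood at 1.81, the kainate receptor gene Grik3 at 1.74 and the serotonin receptor gene Htr6 at 1.63. Lower were Syn3, a gene of a synaptic vesicle coat protein (311 and 66.8 at day 1, 188 and 56.7 at day 7, mean -1.97 ± 0.24), the integrin gene Itgb3 (-1.90 ± 0.51) and the ephrin receptor gene Epha8 (-1.83 ± 0.55). For 6 of the 18 another probe set of the gene was brighter, and 0 of those 6 passed 2-fold at both days in the same direction. For Casp6, a caspase gene, the dim probe set gave 2.01 and the brightest -1.29.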
